A study of Arabidopsis thaliana with 36 samples.

Results

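Rosette buds were compared with sink leaves within plants of 1 genotype, a quintuple bZIP mutant (QM) of Arabidopsis thaliana, across all genes. The comparison used the 3 QM rosette bud libraries and the 3 QM sink leaf libraries, 6 of the 36 libraries in the series. Of 28775 loci in the tables, 20159 passed the filter on low counts and were tested. The series measured RNA by sequencing in wild type (WT, ecotype Col-0), a triple bZIP mutant and the quintuple mutant, in flowers, rosette buds and sink and source leaves, with 3 biological replicates of each. The 3 WT bud and 3 WT sink leaf libraries enter here only as the reference for the mutant. All 12 libraries came from untreated plants grown in 16 h light and 8 h darkness until flowering began, and the 2 genotypes differ only by the bZIP mutations as far as the labels say. The labels name neither the mutated genes nor the alleles or lines, nor the number of plants or buds pooled per library, so the mutant stands here as 1 genotype.

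S1 bZIP proteins are a small group of leucine zipper transcription factors that pair with group C bZIP partners and act downstream of the low energy kinase SnRK1. A conserved upstream open reading frame in their transcripts lets sucrose repress their translation, and ASN1, which makes asparagine, and PRODH1, which degrades proline, are known targets. A rosette bud is the shoot formed in the axil of a rosette leaf: it holds a meristem and leaf primordia, and its outgrowth sets branch number. A sink leaf is a young leaf that still imports sugar and amino acids through the phloem while its photosynthetic apparatus is built. The bud factor BRC1 holds outgrowth back, in part through the homeodomain genes HB21, HB40 and HB53, whereas sugar and cytokinin favour outgrowth.

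The series title sets the S1 bZIP factors against carbon and nitrogen partitioning, so the sequences before the known targets and before a gene of each main group are shown: 300 bases ahead of the annotated gene start in the TAIR10.1 RefSeq assembly, in gene orientation, with the motif in capitals on either strand. ASN1 (chr3:17441432-17441731, minus strand) holds CACGTG, which reads as ACGTG on both strands and so gives 2 overlapping matches to the bZIP core ACGTG; the window overlaps the neighbour AT3G47341. PRODH1 (chr3:12451557-12451856, minus strand) holds ACTCAT, the element known from PRODH1, at 2 places. HCEF1 (chr3:20016537-20016836, plus strand), a chloroplast fructose bisphosphatase gene, holds the G-box CACGTG once. PCNA2 (chr2:12651754-12652053, minus strand), a DNA replication clamp gene, holds TGGGCC at 2 places, and its window overlaps the neighbour AT2G29580. FSD1 (chr4:12887012-12887311, minus strand), an iron superoxide dismutase gene, holds GTAC, the core read by the copper factor SPL7, at 1 place; this motif was chosen after the FSD1 values were seen.
ASN1: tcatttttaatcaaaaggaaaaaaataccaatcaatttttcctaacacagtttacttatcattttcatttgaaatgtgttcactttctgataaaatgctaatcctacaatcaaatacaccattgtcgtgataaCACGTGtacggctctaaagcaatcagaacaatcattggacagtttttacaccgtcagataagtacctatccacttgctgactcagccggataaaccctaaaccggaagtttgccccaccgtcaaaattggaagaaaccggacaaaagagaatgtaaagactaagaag
PRODH1: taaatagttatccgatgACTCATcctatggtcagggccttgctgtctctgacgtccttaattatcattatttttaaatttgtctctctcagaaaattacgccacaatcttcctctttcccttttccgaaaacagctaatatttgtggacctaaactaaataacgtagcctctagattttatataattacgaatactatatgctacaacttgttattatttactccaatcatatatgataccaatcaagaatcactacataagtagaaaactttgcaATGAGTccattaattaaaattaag
HCEF1: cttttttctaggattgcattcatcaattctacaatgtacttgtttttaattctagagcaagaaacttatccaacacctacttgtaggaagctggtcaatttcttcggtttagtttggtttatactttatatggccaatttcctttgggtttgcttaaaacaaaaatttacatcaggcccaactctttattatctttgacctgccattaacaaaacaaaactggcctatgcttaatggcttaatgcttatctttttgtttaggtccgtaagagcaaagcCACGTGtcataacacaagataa
PCNA2: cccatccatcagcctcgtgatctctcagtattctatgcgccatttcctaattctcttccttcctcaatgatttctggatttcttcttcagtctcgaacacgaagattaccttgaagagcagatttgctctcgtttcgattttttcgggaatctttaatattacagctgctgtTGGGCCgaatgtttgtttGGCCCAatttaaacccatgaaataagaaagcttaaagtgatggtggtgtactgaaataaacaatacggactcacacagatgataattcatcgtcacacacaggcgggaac
FSD1: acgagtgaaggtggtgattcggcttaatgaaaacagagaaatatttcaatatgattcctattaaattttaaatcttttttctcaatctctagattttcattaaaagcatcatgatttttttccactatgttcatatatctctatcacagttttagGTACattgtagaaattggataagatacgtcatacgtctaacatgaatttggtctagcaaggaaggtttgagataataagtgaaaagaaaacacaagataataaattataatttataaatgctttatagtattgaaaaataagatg

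The same motifs were sought in such windows of all 19956 tested genes that have one, on both strands. ACTCAT was in 13.4% of the windows of genes called at least 2-fold higher in QM buds, 16.5% of those called at least 2-fold lower and 14.3% of all. CACGTG was in 8.01%, 8.23% and 7.93% in that order, and the shorter ACGTG, which overlaps it, in 28.6%, 28.8% and 26.1%. For these motifs the genes that changed lay within a few percentage points of all tested genes. TGGGCC was in 12.4% of the windows of genes called higher, 13.9% of those called lower and 17.4% of all, and GTAC in 43.5%, 41.6% and 40.4%. AAACCCTA and AAAATATCT were sought too, and were in 2.94%, 3.23% and 4.32% and in 2.84%, 2.69% and 2.88%. Within single lists, CACGTG was in 20.7% of the 29 photosystem windows and 17.6% of the 17 Calvin cycle windows. Its share was higher in other lists, among them raffinose and inositol (71.4% of 7), iron (44.4% of 9) and clock (37.5% of 16). TGGGCC was in 29.2% of the 24 cell cycle windows and 40% of the 15 of cytosolic ribosomal proteins. These shares are descriptions of letters in a window, with no test.

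The 6 QM libraries held 20100808 to 23581262 counts. Levels are given as CPM, counts scaled for library size and composition, and fold changes are QM buds over QM sink leaves on the log2 scale, so a positive value is higher in QM buds. The 12 bud and leaf libraries separated by tissue along the first principal component, which held 57.8% of the variance, and by genotype and within the QM buds along the second, with 23.8%. QM bud library 1 stood apart from the other QM buds and nearer the WT buds. Across genes its log2 CPM correlated at r = 0.944 with QM bud library 2 and 0.895 with library 3, which correlated with each other at 0.976; against the 3 WT bud libraries r was 0.965 to 0.966 for QM bud library 1, 0.901 to 0.914 for library 2 and 0.844 to 0.862 for library 3. The 3 QM sink leaf libraries correlated at 0.957 to 0.972 and the WT replicates at 0.976 to 0.987. The median SD of a gene between replicates was 0.342 on the log2 scale in QM buds and 0.293 in QM sink leaves, against 0.157 in WT buds and 0.194 in WT sink leaves. No 2 libraries agreed within counting error.

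**Figure D1:**
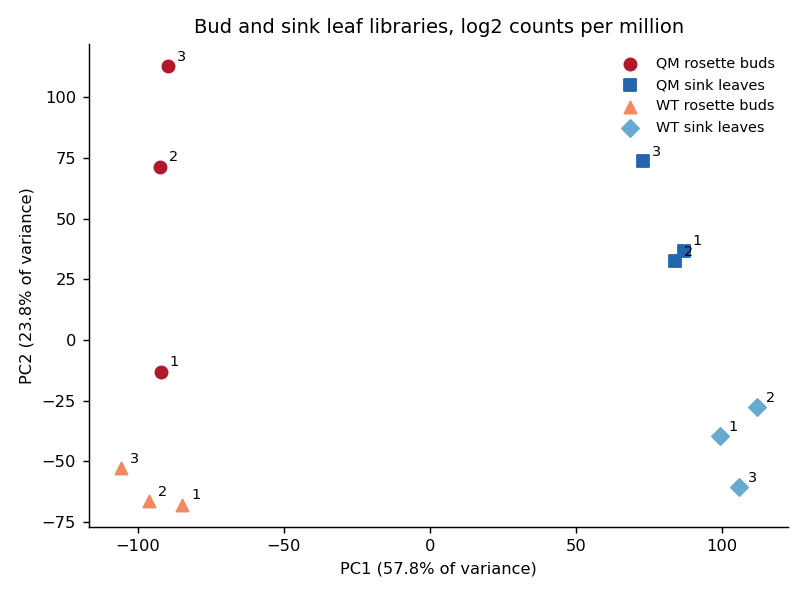
First 2 principal components of the 12 bud and sink leaf libraries from log2 CPM; each point is 1 library with its replicate number. All 6 bud libraries lie left of all 6 leaf libraries, and QM bud library 1 lies between the WT buds and the other 2 QM buds along the vertical axis.

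The tissue labels were checked against markers. STM, which maintains the shoot meristem, had 45.3, 102 and 138 CPM in QM buds and 0, 0 and 0.0529 CPM in QM sink leaves. CUC3, of organ boundaries, had 2.47, 1.1 and 1.04 CPM in QM buds and 0.0427, 0 and 0 CPM in QM sink leaves. LAS, needed to start axillary meristems, had 0.813, 0.72 and 0.783 CPM in QM buds and 0, 0 and 0 CPM in QM sink leaves. These 3 genes were at or near 0 in every QM sink leaf and counted in every QM bud. BRC1 and RAX1, also markers of a bud, were counted in both tissues, higher in every bud, and their values are given with their lists. Summed over the 29 genes of photosystems and light harvesting, the level was 15490, 7551 and 4298 CPM in QM buds and 42590, 61030 and 53140 CPM in QM sink leaves. Every QM bud library lay below every QM sink leaf library, and QM bud library 3 had the lowest sum and library 1 the highest of the buds. Chloroplast-encoded loci took 0.289%, 0.106% and 0.0437% of the counts in QM buds and 1.21%, 1.56% and 1.73% in QM sink leaves, from libraries prepared from oligo-dT selected RNA. Root markers summed to at most 0.779 CPM and seed maturation markers to at most 2.95 CPM in any QM library. The summed level of 9 anther and pollen markers was 16.5, 18.3 and 17.1 CPM in QM buds and 15.7, 15.7 and 17.2 CPM in QM sink leaves, with the groups overlapping. The 14 floral organ genes summed to 59.4, 47.4 and 41.7 CPM in QM buds and 47.15, 32.75 and 35.6 CPM in QM sink leaves. These sums overlapped too, but some members were higher in every QM bud, as given with their list.

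In the quintuple mutant, 4805 of 20159 tested genes (23.8%) differed between QM rosette buds and QM sink leaves at an adjusted p under 0.05 by edgeR's quasi-likelihood test with Benjamini-Hochberg adjustment. Of these, 2336 (11.6% of those tested) were higher and 2469 (12.2%) lower in QM buds; 2020 (10%) were at least 2-fold higher and 1909 (9.47%) at least 2-fold lower. The 3 QM bud values lay wholly above or below the 3 QM sink leaf values for 8703 genes (43.2%), more than passed the test. In WT the same contrast called 13056 of 20003 genes (65.3%), with 6719 higher (33.6%) and 6337 lower (31.7%) in WT buds. The lower count in the mutant went with a larger spread: the common biological coefficient of variation was 0.331 in the QM fit and 0.155 in the WT fit. The median log2 fold change of all genes tested was 0.03 in QM and 0.05 in WT.

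The count of calls moved with single libraries: it was 5890 without QM bud library 1, 2206 without QM bud library 2, 4155 without QM bud library 3, and 2968, 2647 and 3271 without QM sink leaf libraries 1, 2 and 3. Over these 6 fits, 1961 genes (9.73%) were called every time, 906 higher and 1055 lower in QM buds. Counts of a gene list are therefore followed by those of the leave-out fits where they moved by over 1.5 times, and a gene named below that lost its call in one of these fits is given with the library and the adjusted p. List counts are to be read against the 11.6% higher and 12.2% lower among all genes tested. No list share was tested against them. The lists were chosen with earlier results of these data known, so a share above these values is a description only. Of 19590 genes tested in both genotypes, 4353 were called in both, which is 93.2% of the 4671 called in QM and 34.1% of the 12775 called in WT. The 93.2% is to be read against the 65.3% of all genes tested in WT that were called there. Of the 4353 genes, 4346 had the same direction, and the 2 comparisons share no libraries.

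**Figure D2:**
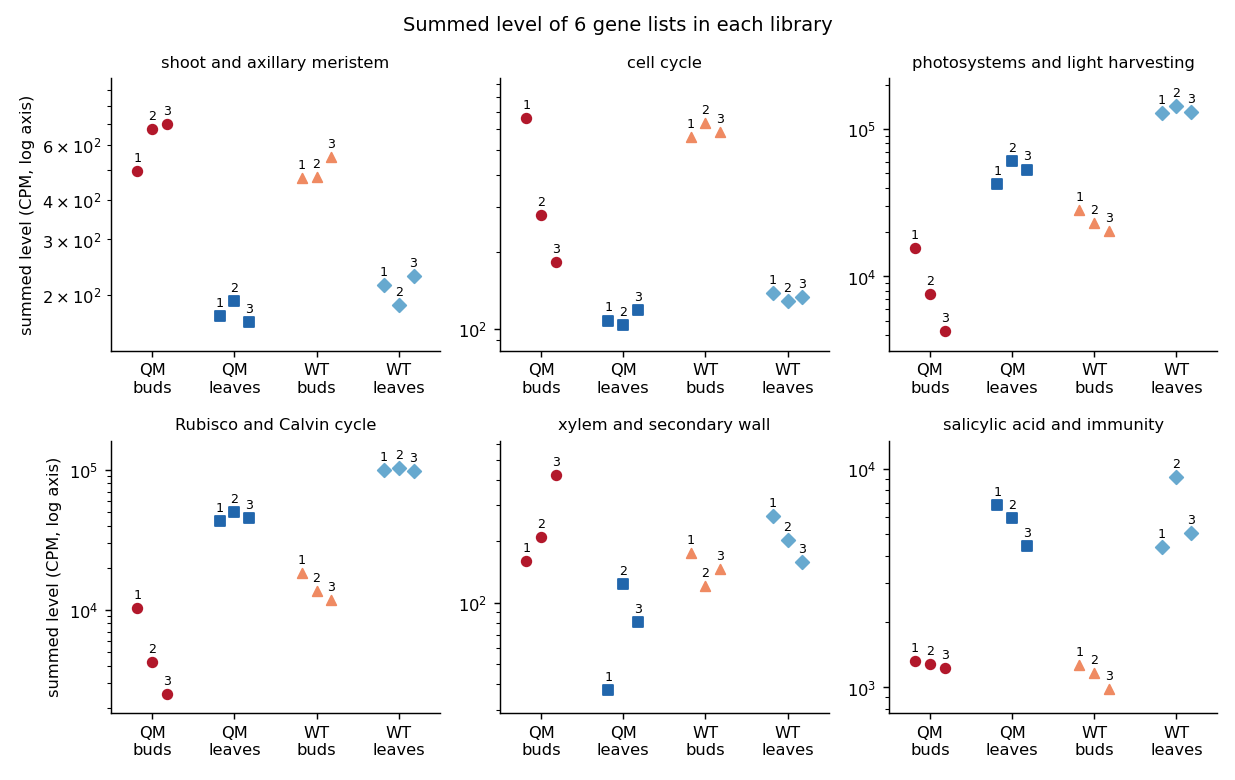
Summed CPM (log axes) of 6 gene lists in each of the 12 libraries, with the replicate number above each point. QM buds lie apart from QM sink leaves in every panel; within the QM buds the cell cycle sum is 666 CPM in library 1 and 182 CPM in library 3, while the xylem sum is 160 CPM in library 1 and 421 CPM in library 3.

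The S1 bZIP transcripts were counted in both tissues of the mutant, and gene-level counts cannot show whether a transcript is intact. bZIP1 had 9.04, 42 and 57.6 CPM in QM buds and 6.15, 11.9 and 29.5 CPM in QM sink leaves; bZIP11 had 21.8, 10.3 and 11.3 CPM in QM buds and 8.76, 9.39 and 4.76 CPM in QM sink leaves; bZIP53 had 64.4, 51.6 and 59.8 CPM in QM buds and 50.4, 64.5 and 82.2 CPM in QM sink leaves. bZIP1 and bZIP53 overlapped between the tissues and bZIP11 did not; none of the 3 was called, with log2 fold changes of 1.20, 0.93 and -0.16 and adjusted p of 0.308, 0.131 and 0.644 for bZIP1, bZIP11 and bZIP53. bZIP2 had 90.9, 95.1 and 81.5 CPM in QM buds and 63.3, 49.5 and 59.5 CPM in QM sink leaves, without overlap, and rose (log2 fold change 0.64, SE 0.17, adjusted p = 0.0329). bZIP44 had 6.03, 5.95 and 7.34 CPM in QM buds and 0.854, 1.56 and 2.48 CPM in QM sink leaves, again without overlap, and it rose (log2 fold change 1.99, SE 0.41, adjusted p = 0.0157). In WT, the means in buds and sink leaves were 4.03 and 6.01 CPM for bZIP1, 76.8 and 96.6 CPM for bZIP2, 15.3 and 8.59 CPM for bZIP11, 6.4 and 2.05 CPM for bZIP44 and 38.6 and 63.8 CPM for bZIP53. All 5 were therefore detected in the mutant. None of the 4 group C partners was called: log2 fold changes were 0.67 for bZIP9, -0.19 for bZIP10, 0.01 for bZIP25 and -0.47 for bZIP63, with 0 at an unadjusted p under 0.05 and 0 called by DESeq2. With replicate number as a term in the edgeR fit, 1 of the 4 rose. S1 bZIP genes showed 0 rises without QM bud library 2 or QM sink leaf library 2 and 1 without QM bud library 3 or QM sink leaf library 1 or 3. bZIP2 lost its call without QM bud library 2 or 3 or QM sink leaf library 1, 2 or 3 (adjusted p 0.051 to 0.136), bZIP44 without QM bud library 2 or QM sink leaf library 2 (adjusted p 0.0542 to 0.0598).

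Most genes of the shoot and axillary meristem were higher in QM buds, from those that keep cells undifferentiated to those that mark organ boundaries. Of 19 tested members of 21, 16 rose and 0 fell, and the list median was a log2 fold change of 3.5; WUS and CLV3, which mark the stem cell niche, were too low to test. With any 1 library left out, 15 to 17 rose. The class I KNOX genes are the first kind. STM, the founding KNOX gene, was 5861 times the QM sink leaf level after scaling for depth (95% counting interval 1052 to 231500), from 7712 counts in QM buds and 1 in QM sink leaves. KNAT1 had 39.2, 78 and 101 CPM in QM buds and 0.0427, 0.0487 and 0.0529 CPM in QM sink leaves, and was 1504 times the QM sink leaf level after scaling for depth (95% counting interval 514 to 7294), from 5936 counts in QM buds and 3 in QM sink leaves. KNAT2 had 8.57, 13.6 and 18.1 CPM in QM buds and 0.0427, 0.195 and 0.159 CPM in QM sink leaves (log2 fold change 6.65, SE 0.54, adjusted p = 0.00151). KNAT6 had 22.1, 45.9 and 52.8 CPM in QM buds and 0.769, 1.46 and 0.634 CPM in QM sink leaves (log2 fold change 5.40, SE 0.48, adjusted p = 0.00175). All 4 KNOX genes were separated between the tissues without overlap, with QM bud library 1 the lowest of the buds for STM.

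Boundary genes, which separate an organ from the meristem, rose too, and all 6 given here were called in every leave-out fit. CUC3 was 98.8 times the QM sink leaf level after scaling for depth (95% counting interval 17.4 to 3932), from 130 counts in QM buds and 1 in QM sink leaves. CUC1 averaged 1.71 ± 0.458 CPM in QM buds and 0.0853 ± 0.08 CPM in QM sink leaves (SD, n = 3 each) and CUC2 1.93 ± 1.38 CPM in QM buds and 0.0603 ± 0.0644 CPM in QM sink leaves, with log2 fold changes of 4.32 and 4.84. LAS was at least 16.2-fold higher in QM buds (64 counts, against 0 in the 3 sink leaf libraries), and LOF1 was at least 64.3-fold higher in QM buds (254 counts, against 0 in the 3 sink leaf libraries). LSH3, a boundary gene of the ALOG family, averaged 36.5 ± 9.14 CPM in QM buds and 3.22 ± 1.23 CPM in QM sink leaves (SD, n = 3 each; log2 fold change 3.5, SE 0.34, adjusted p = 0.00192). PNF and BLH9, BELL partners of the KNOX proteins, rose by log2 fold changes of 2.68 and 1.74, and REV, an HD-ZIP III gene, by 1.30. RAX1 had 1.39, 3.26 and 5.41 CPM in QM buds and 0.641, 0.681 and 1.22 CPM in QM sink leaves; this MYB gene of axillary meristem initiation was called (log2 fold change 1.99, SE 0.58, adjusted p = 0.0469). RAX1 lost its call without QM bud library 2 or 3 or QM sink leaf library 1, 2 or 3 (adjusted p 0.0698 to 0.143). In WT, RAX1 was at least 23.7-fold higher in WT buds (116 counts, against 0 in the 3 WT sink leaf libraries), and the difference between genotypes was not called (adjusted p = 0.119). The 3 tested members that were not called were CLV1, RAX3 and ATH1, with -0.19, 1.51 and 1.65. In bulk tissue, fewer cells of a type and less RNA per cell cannot be told apart.

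Genes of branching and bud dormancy were mixed. 4 of 16 rose and 1 fell, against 11.6% and 12.2% of all tested genes. Branching genes showed 2 rises without QM bud library 2 or QM sink leaf library 2 and 7 without QM bud library 1. BRC1 had 9.96, 13.9 and 14.4 CPM in QM buds and 0.384, 3.5 and 5.02 CPM in QM sink leaves, without overlap, and missed the threshold (log2 fold change 2.12, SE 0.74, adjusted p = 0.0816); without QM sink leaf library 1 its adjusted p was 0.0275. Its paralog BRC2 had 5.62, 9.17 and 13.2 CPM in QM buds and 1.02, 2.29 and 1.16 CPM in QM sink leaves and rose (log2 fold change 2.65, SE 0.46, adjusted p = 0.00897). The homeodomain targets of BRC1 rose: HB21 had 4.44, 9.78 and 14.5 CPM in QM buds and 0.214, 0.243 and 1.9 CPM in QM sink leaves (log2 fold change 3.63, SE 0.90, adjusted p = 0.0279). HB40 had 1.73, 2.27 and 5.41 CPM in QM buds and 0, 0.0973 and 0 CPM in QM sink leaves, and was 97.3 times the QM sink leaf level after scaling for depth (95% counting interval 26.7 to 808), from 256 counts in QM buds and 2 in QM sink leaves, with an adjusted p of 0.00632. HB53 had 4.37, 10.3 and 20.2 CPM in QM buds and 0, 0.633 and 0.951 CPM in QM sink leaves (log2 fold change 4.49, SE 1.03, adjusted p = 0.0216). All 3 homeodomain genes were separated between the tissues; their bud values differed several-fold between libraries. In WT, HB21 was 239 times the WT sink leaf level (95% counting interval 65.8 to 1974), from 778 counts in WT buds and 2 in WT sink leaves. HB40 was at least 99.6-fold higher in WT buds (487 counts, against 0 in the 3 WT sink leaf libraries). HB53 was 443 times the WT sink leaf level (95% counting interval 79.3 to 17540), from 723 counts in WT buds and 1 in WT sink leaves. The genotype difference was called for none of them (adjusted p 0.208, 0.484 and 0.32). HB21 lost its call without QM bud library 2 or 3 or QM sink leaf library 1 or 2 (adjusted p 0.0546 to 0.086), HB53 without QM bud library 2 or QM sink leaf library 2 (adjusted p 0.0615 to 0.0764).

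The dormancy marker DRM1 overlapped between the tissues, with 125, 242 and 404 CPM in QM buds and 50.9, 94.9 and 184 CPM in QM sink leaves (log2 fold change 1.23, SE 0.57, adjusted p = 0.169). D14, the strigolactone receptor, was the member that fell, with 53.6, 70.1 and 70 CPM in QM buds and 163, 122 and 170.3 CPM in QM sink leaves (log2 fold change -1.23, SE 0.21, adjusted p = 0.00837). Of the strigolactone synthesis genes, MAX3 and MAX4 were not called at log2 fold changes of -1.52 and 3.11, and the repressors SMXL6, SMXL7 and SMXL8 had 0.15, 0.80 and 0.03. NCED3, an abscisic acid synthesis gene downstream of the homeodomain factors, had 3.25, 7.81 and 57.4 CPM in QM buds and 5.89, 10.6 and 23.2 CPM in QM sink leaves, not called at 0.79.

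Regulators of the leaf blade split by family. Of 24 genes, 8 rose and 4 fell. Those that rose were the growth-regulating factors GRF1, GRF3 and GRF5 and their coactivator AN3, which sustain division in young primordia, and the polarity genes ETT, ARF4, AS2 and PHB. AN3 had 59.5, 29.5 and 18.9 CPM in QM buds and 1.15, 1.7 and 1.37 CPM in QM sink leaves (log2 fold change 4.68, SE 0.49, adjusted p = 0.00233). GRF5 had 32.4, 15 and 7.87 CPM in QM buds and 0.769, 0.0973 and 0.528 CPM in QM sink leaves (log2 fold change 5.28, SE 0.79, adjusted p = 0.00566). GRF3 had 57, 40.4 and 28.7 CPM in QM buds and 5.47, 8.56 and 9.36 CPM in QM sink leaves (log2 fold change 2.44, SE 0.33, adjusted p = 0.00418). For all 3 the tissues were apart, and QM bud library 1 was the highest of the buds. Those that fell were YAB5 and the CIN-type TCP genes TCP3, TCP10 and TCP13, which end division in the blade: TCP13 had 8.09, 5.3 and 8.76 CPM in QM buds and 35, 28.4 and 35.8 CPM in QM sink leaves (log2 fold change -2.15, SE 0.24, adjusted p = 0.00263), and YAB5 averaged 1.46 ± 0.686 CPM in QM buds and 7.73 ± 0.909 CPM in QM sink leaves (SD, n = 3 each; log2 fold change -2.39, SE 0.38, adjusted p = 0.00685). GRF1 lost its call without QM bud library 2 or QM sink leaf library 1, 2 or 3 (adjusted p 0.0567 to 0.0984), ARF4 without QM bud library 2 or QM sink leaf library 1, 2 or 3 (adjusted p 0.0615 to 0.113), AS2 without QM bud library 2 (adjusted p = 0.0505), PHB without QM bud library 1, 2 or 3 or QM sink leaf library 1 or 3 (adjusted p 0.0558 to 0.104), TCP3 without QM bud library 2 or QM sink leaf library 1 or 2 (adjusted p 0.0714 to 0.0847) and TCP10 without QM bud library 2 or 3 or QM sink leaf library 1, 2 or 3 (adjusted p 0.0605 to 0.104). ETT, an auxin response factor of the lower leaf side, averaged 66.7 ± 10.3 CPM in QM buds and 30 ± 2.57 CPM in QM sink leaves (SD, n = 3 each; log2 fold change 1.16, SE 0.17, adjusted p = 0.00582). Leaf blade regulators showed 4 rises without QM bud library 2 and 5 without QM sink leaf library 1 or 3. Leaf blade regulators showed 2 falls without QM bud library 2 or QM sink leaf library 1 or 2 and 10 without QM bud library 1. In WT the log2 fold changes of AN3 and GRF3 were 6.40 and 5.0, and GRF5 was at least 452-fold higher in WT buds (2211 counts, against 0 in the 3 WT sink leaf libraries). The genotype difference was not called for AN3, GRF3 or GRF5 (adjusted p 0.164, 0.076 and 0.16).

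Cell division genes were higher in QM buds, with a wide range between the bud libraries. Of 24 genes, 14 rose and 0 fell, with a list median of 2.43; in WT all 24 rose, with a median of 2.41. Summed over the list, the level was 666, 277 and 182 CPM in QM buds and 108, 104 and 119 CPM in QM sink leaves, so that QM bud library 1 had more than 3 times the sum of library 3, and each bud library exceeded each leaf library. Cell division genes showed 4 rises without QM sink leaf library 1 and 5 without QM sink leaf library 2. D-type cyclins drive entry into the cycle: CYCD3;1 had 69.5, 43.4 and 28.3 CPM in QM buds and 4.61, 9.83 and 8.3 CPM in QM sink leaves (log2 fold change 2.64, SE 0.42, adjusted p = 0.00668). CYCD3;3 had 26.1, 10.5 and 9.02 CPM in QM buds and 2.09, 2.09 and 2.33 CPM in QM sink leaves (log2 fold change 2.81, SE 0.46, adjusted p = 0.00719). PCNA2, whose upstream bases are printed above, had 24.6, 16.1 and 13.3 CPM in QM buds and 6.75, 4.91 and 5.18 CPM in QM sink leaves (log2 fold change 1.69, SE 0.29, adjusted p = 0.00851). None of these 3 genes overlapped between the tissues. The mitotic kinase gene CDKB2;2 averaged 6.84 ± 3.73 CPM in QM buds and 1.17 ± 0.408 CPM in QM sink leaves (SD, n = 3 each; log2 fold change 2.56, SE 0.49, adjusted p = 0.0117), and HIK, a kinesin of cytokinesis, 18.6 ± 16.3 CPM in QM buds and 1.85 ± 0.466 CPM in QM sink leaves (log2 fold change 3.34, SE 0.67, adjusted p = 0.0141). The replication helicase genes MCM2 to MCM7 were not called, at log2 fold changes of -0.33 for MCM3 and 1.37 to 1.70 for the other 5. HIK lost its call without QM sink leaf library 1 or 2 (adjusted p 0.0546 to 0.0573). Of the endoreduplication genes, SMR1, an inhibitor of the cyclin kinases, fell (log2 fold change -2.13, SE 0.28, adjusted p = 0.00386) and SIM, of the same family, rose (log2 fold change 1.10, SE 0.27, adjusted p = 0.0261). SIM lost its call without QM bud library 2 or 3 or QM sink leaf library 1, 2 or 3 (adjusted p 0.0623 to 0.0918). Endoreduplication genes showed 0 rises without QM bud library 2 or 3 or QM sink leaf library 1, 2 or 3.

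None of 15 cytosolic ribosomal protein genes was called in QM by edgeR's quasi-likelihood test without a replicate term, in the fit of all 6 libraries or in the leave-out fits. All 15 had a positive fold, from 0.272 to 0.869, with a median of 0.58. At an unadjusted p under 0.05, which 37.1% of all genes tested passed, there were 3, and DESeq2 called 3. With replicate number as a term in the edgeR fit, 7 of the 15 rose. In WT all 15 rose, with a median of 0.99.

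Genes of photosynthesis were lower in QM buds almost without exception. Of 29 nuclear genes of the photosystems and their antennae, 28 fell and none rose; the list median was -2.54, and -2.55 in WT, where all 29 fell. All 29 were separated between the QM tissues without overlap. PSBR had 299.5, 192 and 133 CPM in QM buds and 1333, 1381 and 1284 CPM in QM sink leaves (log2 fold change -2.67, SE 0.36, adjusted p = 0.00412). PSBO2, of the oxygen-evolving complex, had 313, 181 and 139 CPM in QM buds and 1076, 1367 and 1449 CPM in QM sink leaves (log2 fold change -2.61, SE 0.38, adjusted p = 0.00505). PSAD-2, on the acceptor side of photosystem I, had 165, 68.4 and 46.9 CPM in QM buds and 532, 681 and 606 CPM in QM sink leaves (log2 fold change -2.69, SE 0.49, adjusted p = 0.0102). In each of these QM bud library 1 was the highest of the buds and library 3 the lowest, and all were below the leaves. PSBQ-2 and PSBO1 of photosystem II fell by log2 fold changes of -2.65 and -2.36, and NPQ4, which dissipates excess light, was the 1 member not called (log2 fold change -2.48, SE 0.79, adjusted p = 0.0619). Photosystem genes showed 4 falls without QM bud library 2, 12 without QM sink leaf library 2 and 18 without QM sink leaf library 3. PSBO1 lost its call without QM bud library 2 (adjusted p = 0.0589).

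All 17 genes of Rubisco and the Calvin cycle fell in QM buds, with a median of -3.05, and all 17 did so in WT, with -2.85. Calvin cycle genes showed 8 falls without QM bud library 2 and 11 without QM sink leaf library 1 or 2. CP12-2, a redox regulator of the cycle, had 32.5, 21.4 and 18.9 CPM in QM buds and 388, 274 and 294 CPM in QM sink leaves (log2 fold change -3.71, SE 0.30, adjusted p = 0.00146). HCEF1, whose upstream window holds a G-box, had 127, 74.2 and 55.5 CPM in QM buds and 731, 665 and 729.7 CPM in QM sink leaves (log2 fold change -3.05, SE 0.35, adjusted p = 0.00286). RPE, an epimerase of the regeneration phase, had 175, 143 and 126 CPM in QM buds and 407, 438 and 466 CPM in QM sink leaves (log2 fold change -1.55, SE 0.21, adjusted p = 0.00422). Each was apart between the tissues. The aldolase gene FBA1 averaged 162 ± 125 CPM in QM buds and 2109 ± 176 CPM in QM sink leaves (SD, n = 3 each; log2 fold change -3.70, SE 0.61, adjusted p = 0.0075), and GAPA 559 ± 249.7 CPM in QM buds and 3590 ± 589.7 CPM in QM sink leaves (log2 fold change -2.68, SE 0.44, adjusted p = 0.00751). The 4 Rubisco small subunit genes had log2 fold changes of -2.66 to -3.55; RBCS1B, RBCS2B and RBCS3B are near-identical copies, and how their reads were divided between them is uncertain. RBCS1A lost its call without QM bud library 2 or QM sink leaf library 1, 2 or 3 (adjusted p 0.0797 to 0.145), RBCS1B without QM bud library 2 or QM sink leaf library 1, 2 or 3 (adjusted p 0.0644 to 0.114), RBCS2B without QM bud library 2 or QM sink leaf library 1, 2 or 3 (adjusted p 0.07 to 0.0918) and RBCS3B without QM bud library 2 or QM sink leaf library 1, 2 or 3 (adjusted p 0.0635 to 0.102).

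**Figure D3:**
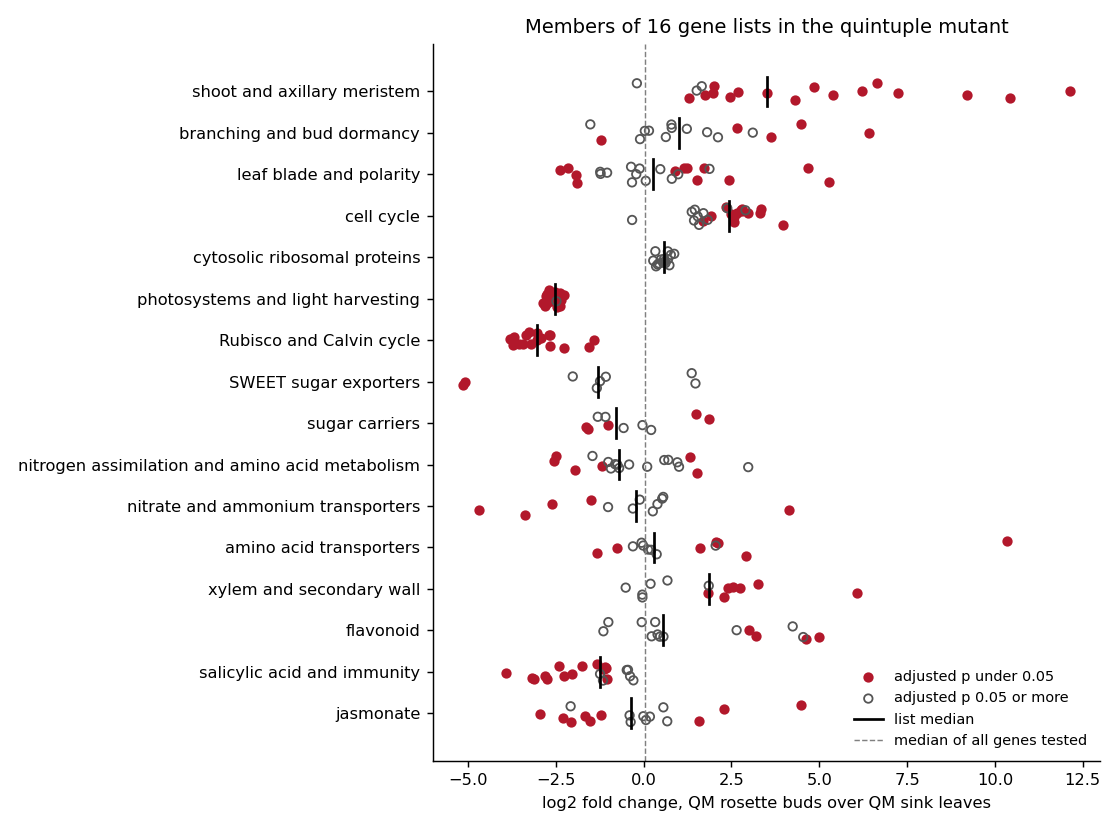
Log2 fold change of QM rosette buds over QM sink leaves for each tested member of 16 lists: filled points passed an adjusted p of 0.05, open points did not, black bars are list medians and the dashed line is the median of all tested genes (0.03). All but 1 of the meristem genes and 1 of the cell cycle genes lie right of 0, and the photosynthesis genes lie left of it, while the transport and nitrogen lists spread to both sides.

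Sugar exporters of the SWEET family were lower in QM buds where they were called. Of 8 tested, none rose and 2 fell, SWEET11 and SWEET13, which export sucrose ahead of phloem loading. SWEET genes showed 4 falls without QM bud library 1 or 3. SWEET11 had 5.25, 12.3 and 17.6 CPM in QM buds and 347, 334 and 508 CPM in QM sink leaves (log2 fold change -5.08, SE 0.51, adjusted p = 0.00201). SWEET13 had 1.25, 0.796 and 0.522 CPM in QM buds and 25.2, 29.6 and 37 CPM in QM sink leaves (log2 fold change -5.14, SE 0.37, adjusted p = 0.00111). SWEET12 had 7.89, 35.2 and 51.3 CPM in QM buds and 88.9, 127 and 168 CPM in QM sink leaves and was not called (log2 fold change -2.02, SE 0.63, adjusted p = 0.0584). SWEET11 and SWEET13 were more than 10 times lower in every QM bud than in any QM sink leaf, whereas QM bud library 3 of SWEET12 came within 2-fold of the lowest leaf; without QM bud library 1 the adjusted p of SWEET12 was 0.0131, and without library 3 it was 0.0372. The WT log2 fold changes were -6.36 for SWEET11, -5.69 for SWEET12 and -2.23 for SWEET13, with the genotype difference not called for any of them (adjusted p 0.303, 0.1 and 0.076). The vacuolar SWEET16 and SWEET17 were not called at 1.37 and 1.47.

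Among sugar carriers, the 3 called importers of the plasma membrane fell and the 2 called vacuolar carriers rose. Only SUC1 and SUT4 kept their call in every leave-out fit, so each direction rests on 1 gene there. SUC1, a sucrose importer, had 49.2, 57.9 and 75.5 CPM in QM buds and 186, 191 and 199 CPM in QM sink leaves (log2 fold change -1.65, SE 0.21, adjusted p = 0.00353). SUT4, which moves sucrose out of the vacuole, had 23.4, 34.8 and 39.8 CPM in QM buds and 6.54, 9.39 and 11.2 CPM in QM sink leaves (log2 fold change 1.86, SE 0.29, adjusted p = 0.00614). SUC2, the phloem loader, had 57, 94.6 and 171 CPM in QM buds and 197, 300 and 303 CPM in QM sink leaves, and was not called (log2 fold change -1.31, SE 0.41, adjusted p = 0.0617). SUC1 and SUT4 were each apart between the tissues, and SUC2 was too. The hexose importers STP1 and STP4 fell (-1.58 and -1.02) and TMT2, which loads the vacuole, rose (log2 fold change 1.5, SE 0.36, adjusted p = 0.0251). In all, 2 of 10 rose and 3 fell, against 11.6% and 12.2% of all tested genes. STP1 lost its call without QM bud library 2 or QM sink leaf library 2 or 3 (adjusted p 0.0679 to 0.0824), STP4 without QM bud library 2 or QM sink leaf library 1 or 2 (adjusted p 0.0519 to 0.0781) and TMT2 without QM bud library 2 or 3 or QM sink leaf library 1 or 2 (adjusted p 0.0531 to 0.0885). Sugar carriers showed 1 fall without QM bud library 2 or QM sink leaf library 2. Sugar carriers showed 1 rise without QM bud library 2 or 3 or QM sink leaf library 1 or 2.

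**Figure D4:**
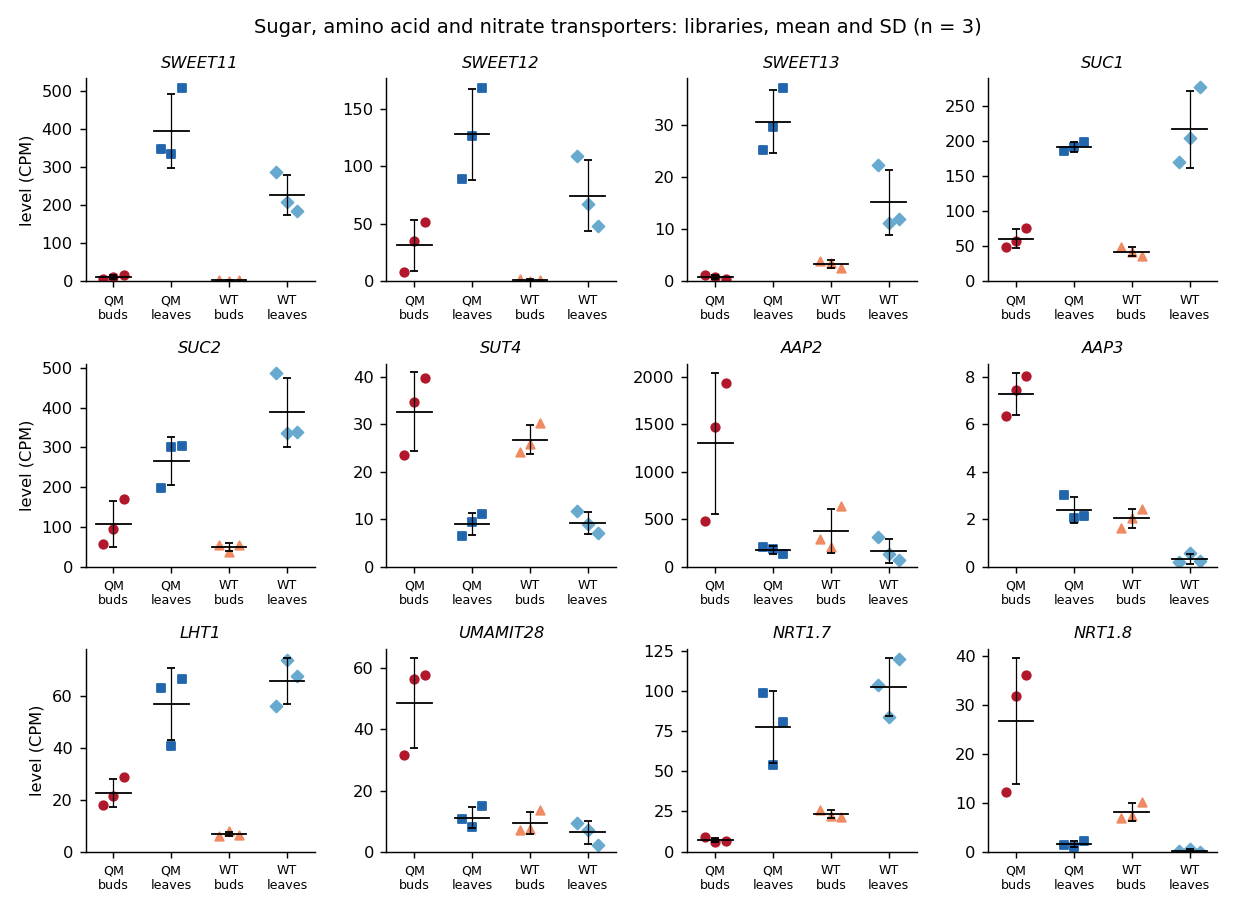
CPM of 12 sugar, amino acid and nitrate transporter genes in each library, with the mean and SD of each group (n = 3). SWEET11, SWEET13 and NRT1.7 are near the baseline in all QM buds, AAP2 ranges from 483 to 1936 CPM over the QM buds, and SUT4 and NRT1.8 lie above the sink leaves in every QM bud.

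Sucrose turnover genes held a wide rise and a wide fall. SUS4, a sucrose synthase of low oxygen and sink tissue, had 7.04, 24.6 and 52.1 CPM in QM buds and 0.0427, 0.681 and 0.634 CPM in QM sink leaves (log2 fold change 5.97, SE 1.01, adjusted p = 0.00825). SPS4F, a sucrose phosphate synthase, had 2.54, 2.27 and 6.75 CPM in QM buds and 207, 101 and 127 CPM in QM sink leaves (log2 fold change -5.22, SE 0.55, adjusted p = 0.00233). Both were apart between the tissues in every library. The vacuolar invertase gene FRUCT4 fell (log2 fold change -0.73, SE 0.17, adjusted p = 0.0216) and SPS1F fell by 0.90 on the log2 scale; in all 1 of 11 tested rose and 3 fell. Sucrose genes showed 2 rises without QM sink leaf library 1 and 3 without QM bud library 1. The cell wall invertase gene CWINV1 had 34.5, 55 and 49.6 CPM in QM buds and 59.5, 63.4 and 53.7 CPM in QM sink leaves and was not called (log2 fold change -0.34, SE 0.21, adjusted p = 0.286), with a WT log2 fold change of -2.62 and an adjusted p of 0.076 for the genotype difference. FRUCT4 lost its call without QM bud library 2 or 3 or QM sink leaf library 1, 2 or 3 (adjusted p 0.0577 to 0.0873), SPS1F without QM bud library 2 or QM sink leaf library 1, 2 or 3 (adjusted p 0.0652 to 0.103). Sucrose turnover genes showed 1 fall without QM bud library 2 or QM sink leaf library 1, 2 or 3.

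In the trehalose phosphate pathway, a sugar signal, 3 of 18 genes rose, against 11.6% of all tested genes, and none fell; the 3 were phosphatases, which remove the signal. TPPI had 3.66, 2.39 and 2.2 CPM in QM buds and 0.128, 0.0487 and 0.211 CPM in QM sink leaves (log2 fold change 4.38, SE 0.56, adjusted p = 0.00361). TPPB had 1.93, 3.07 and 2.31 CPM in QM buds and 0.128, 0.0487 and 0.264 CPM in QM sink leaves (log2 fold change 4.03, SE 0.58, adjusted p = 0.00506). TPPH had 2.64, 5.38 and 6.49 CPM in QM buds and 1.24, 1.8 and 1.22 CPM in QM sink leaves (log2 fold change 1.77, SE 0.42, adjusted p = 0.0244). All 3 were apart between the tissues; TPS1, the synthase, was not called (log2 fold change 0.35, SE 0.21, adjusted p = 0.284). TPPH lost its call without QM bud library 2 or 3 or QM sink leaf library 1, 2 or 3 (adjusted p 0.0575 to 0.0901). Trehalose phosphate genes showed 5 rises without QM bud library 1.

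Of 15 starch synthesis genes 1 rose and 3 fell, against 11.6% and 12.2% of all tested genes, and of 15 starch breakdown genes 3 rose and 3 fell. Starch synthesis genes showed 0 rises without QM bud library 2 or QM sink leaf library 1, 2 or 3 and 2 without QM bud library 1. BAM3, the main beta-amylase of leaf starch, had 139.9, 88.5 and 40.5 CPM in QM buds and 1630, 1494 and 1178 CPM in QM sink leaves (log2 fold change -3.99, SE 0.51, adjusted p = 0.00361). ISA3, a debranching enzyme, had 12.5, 15.4 and 16.6 CPM in QM buds and 3.84, 5.21 and 4.86 CPM in QM sink leaves (log2 fold change 1.68, SE 0.22, adjusted p = 0.00404). SS2, a starch synthase, had 47.5, 32.7 and 28.2 CPM in QM buds and 95.8, 99.3 and 94.9 CPM in QM sink leaves (log2 fold change -1.41, SE 0.22, adjusted p = 0.00668). These 3 were apart between the tissues. AMY3, an alpha-amylase, rose (log2 fold change 1.84, SE 0.38, adjusted p = 0.0155) and GBSS1, which makes amylose, fell (log2 fold change -2.99, SE 0.64, adjusted p = 0.0176). In the raffinose and inositol list 2 of 7 fell, RS5 (log2 fold change -1.59, SE 0.30, adjusted p = 0.0118) and MIPS1 (log2 fold change -1.97, SE 0.48, adjusted p = 0.0271). Raffinose and inositol genes showed 0 falls without QM bud library 2 and 1 without QM sink leaf library 1 or 2. Raffinose and inositol genes showed 1 rise without QM bud library 3 or QM sink leaf library 1. AMY3 lost its call without QM bud library 2 or QM sink leaf library 2 or 3 (adjusted p 0.0519 to 0.0614), GBSS1 without QM bud library 2 or QM sink leaf library 1 or 2 (adjusted p 0.0532 to 0.0733), RS5 without QM bud library 2 (adjusted p = 0.0539) and MIPS1 without QM bud library 2 or QM sink leaf library 1 or 2 (adjusted p 0.0587 to 0.102). Starch synthesis genes showed 1 fall without QM bud library 2 or QM sink leaf library 1 or 2 and 7 without QM bud library 1. Starch breakdown genes showed 1 fall without QM bud library 2 or QM sink leaf library 1 or 3. Starch breakdown genes showed 1 rise without QM bud library 2 or QM sink leaf library 2 or 3.

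ASN1, with 2 overlapping ACGTG matches in the window shown, was not called in QM. It had 84.6, 189 and 224 CPM in QM buds and 2.56, 22.9 and 38.1 CPM in QM sink leaves (log2 fold change 2.98, SE 0.88, adjusted p = 0.0501). PRODH1, with 2 ACTCAT matches, had 10.8, 4.81 and 4.06 CPM in QM buds and 13.5, 10.7 and 9.04 CPM in QM sink leaves (log2 fold change -0.75, SE 0.40, adjusted p = 0.229). ASN1 was above the leaves in every QM bud, whereas PRODH1 overlapped between the tissues. Both depended on single libraries: ASN1 had an adjusted p of 0.033 without QM bud library 1 and 0.0346 without QM sink leaf library 1, and PRODH1 of 0.0122 without QM bud library 1. In WT, ASN1 averaged 153 ± 24.5 CPM in WT buds and 7.69 ± 2.55 CPM in WT sink leaves (SD, n = 3 each; log2 fold change 4.25, SE 0.23, adjusted p = 1.34e-06) and PRODH1 28.6 ± 7.51 CPM in WT buds and 24.3 ± 2.9 CPM in WT sink leaves (log2 fold change 0.18, SE 0.18, adjusted p = 0.408).

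Of 19 genes of nitrogen assimilation and amino acid metabolism 2 rose and 4 fell; NIA2, GLU1, GS2 and GLN1;2 fell, and GLN1;3 and GDH2 rose. NIA2, nitrate reductase, had 563, 731 and 631 CPM in QM buds and 3639, 4096 and 3504 CPM in QM sink leaves (log2 fold change -2.54, SE 0.31, adjusted p = 0.00333). GLN1;3, a cytosolic glutamine synthetase, had 114, 112 and 121 CPM in QM buds and 41.4, 42.9 and 55.3 CPM in QM sink leaves (log2 fold change 1.32, SE 0.18, adjusted p = 0.00413). GDH2, glutamate dehydrogenase of mitochondria, had 42.4, 62.9 and 70.7 CPM in QM buds and 14.6, 24.6 and 22.5 CPM in QM sink leaves (log2 fold change 1.52, SE 0.28, adjusted p = 0.0103). All 3 were apart between the tissues. The chloroplast glutamine synthetase GS2 fell by 1.95 on the log2 scale, the ferredoxin-dependent glutamate synthase GLU1 by 2.50, and GLN1;2, another cytosolic glutamine synthetase, by 1.19. GLU1 lost its call without QM bud library 2 (adjusted p = 0.064), GLN1;2 without QM sink leaf library 1 (adjusted p = 0.0541) and GS2 without QM bud library 2 or QM sink leaf library 2 (adjusted p 0.0606 to 0.0776). Nitrogen assimilation genes showed 2 falls without QM bud library 2. Nitrogen assimilation genes showed 4 rises without QM bud library 1.

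Of 12 tested nitrate and ammonium transporters 1 rose and 4 fell, against 11.6% and 12.2% of all tested genes. Folds were positive for 5 of the 12, and the list median was -0.21. NRT1.7, which remobilises nitrate from older leaves, had 8.87, 6.33 and 6.97 CPM in QM buds and 98.5, 53.6 and 80.6 CPM in QM sink leaves (log2 fold change -3.38, SE 0.28, adjusted p = 0.00154). NRT1.8, which takes nitrate out of the xylem, had 12.1, 31.7 and 36.1 CPM in QM buds and 1.41, 1.02 and 2.17 CPM in QM sink leaves (log2 fold change 4.12, SE 0.51, adjusted p = 0.00346). AMT1;2, an ammonium transporter, had 11.7, 13.3 and 12.7 CPM in QM buds and 114, 58.5 and 59 CPM in QM sink leaves (log2 fold change -2.62, SE 0.30, adjusted p = 0.00291). The tissues were apart for all 3, in opposite directions for NRT1.7 and NRT1.8. AMT1;1 and NRT2.5, a high-affinity nitrate transporter, fell too (-1.49 and -4.70). NRT2.5 lost its call without QM bud library 2 (adjusted p = 0.0632).

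Amino acid transporters were split: 5 of 14 tested rose and 2 fell. UMAMIT14, an exporter that unloads amino acids from phloem, had 5.99, 9.51 and 4.44 CPM in QM buds and 0, 0 and 0 CPM in QM sink leaves, at least 139-fold higher in QM buds (547 counts, against 0 in the 3 sink leaf libraries). UMAMIT28, an exporter known from seed, had 31.6, 56.5 and 57.8 CPM in QM buds and 10.6, 8.13 and 14.8 CPM in QM sink leaves (log2 fold change 2.12, SE 0.32, adjusted p = 0.00596). SIAR1, another exporter, had 57.5, 94 and 91.2 CPM in QM buds and 26.4, 19.9 and 12.2 CPM in QM sink leaves (log2 fold change 2.06, SE 0.33, adjusted p = 0.00722). For these 3 exporters every QM bud lay above every QM sink leaf. AAP3, an importer, had 6.33, 7.46 and 8.05 CPM in QM buds and 3.03, 2.04 and 2.11 CPM in QM sink leaves (log2 fold change 1.60, SE 0.27, adjusted p = 0.00846). AAP2, which moves amino acids from xylem to phloem, had 483, 1470 and 1936 CPM in QM buds and 209, 180.1 and 128 CPM in QM sink leaves (log2 fold change 2.92, SE 0.54, adjusted p = 0.0108). LHT1, an importer of leaf cells, fell, with 17.9, 21.4 and 28.6 CPM in QM buds and 63, 40.8 and 66.5 CPM in QM sink leaves (log2 fold change -1.32, SE 0.26, adjusted p = 0.0133). In WT, UMAMIT14 was at least 12.5-fold higher in WT buds (61 counts, against 0 in the 3 WT sink leaf libraries). UMAMIT28 and SIAR1 had WT log2 fold changes of 0.51 and 0.33, and the list median was 0.29 in QM and -0.38 in WT; the genotype difference passed for no member, with an adjusted p of 0.076 for LHT1 and 0.272 for UMAMIT28. AAP2 lost its call without QM sink leaf library 2 (adjusted p = 0.0501), LHT1 without QM bud library 2 or QM sink leaf library 1 (adjusted p 0.0516 to 0.0606). Amino acid transporters showed 0 falls without QM bud library 2 or QM sink leaf library 1 and 1 without QM sink leaf library 2 or 3.

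Of 10 genes of low energy and branched-chain amino acid breakdown, 2 rose and 1 fell, against 11.6% and 12.2% of all tested genes. Low energy genes showed 0 falls without QM bud library 1 or 2 or QM sink leaf library 1 or 3. DIN2, a beta-glucosidase induced in darkness, had 3.12, 7.84 and 33.3 CPM in QM buds and 0, 0.0973 and 0.106 CPM in QM sink leaves (log2 fold change 7.74, SE 1.29, adjusted p = 0.00781). It was near 0 in the QM sink leaves. SEN1 and DIN4, a subunit of the branched-chain dehydrogenase, were not called, at -1.22 and 0.06. MCCB rose (log2 fold change 0.74, SE 0.19, adjusted p = 0.0337) and IVD fell (log2 fold change -0.80, SE 0.21, adjusted p = 0.0348), both of leucine breakdown. MCCB lost its call without QM bud library 2 or 3 or QM sink leaf library 1 or 2 (adjusted p 0.0787 to 0.135), IVD without QM bud library 1, 2 or 3 or QM sink leaf library 1 or 3 (adjusted p 0.056 to 0.111). Low energy genes showed 1 rise without QM bud library 2 or 3 or QM sink leaf library 1 or 2.

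Auxin transport genes differed by member: 4 of 17 tested rose and 3 fell. PIN4, an efflux carrier, had 89.5, 75.2 and 78.7 CPM in QM buds and 165, 192 and 157 CPM in QM sink leaves (log2 fold change -1.07, SE 0.17, adjusted p = 0.00703). LAX2, an importer of vascular cells, had 40.3, 21.7 and 19.8 CPM in QM buds and 7.82, 8.61 and 5.07 CPM in QM sink leaves (log2 fold change 1.93, SE 0.35, adjusted p = 0.0101). Each was apart between the tissues. PIN6 rose (1.79) and PIN3 fell (-1.02). PIN6 lost its call without QM sink leaf library 2 or 3 (adjusted p 0.0565 to 0.0636), PIN3 without QM bud library 2 or 3 or QM sink leaf library 2 or 3 (adjusted p 0.0501 to 0.0842). Of 12 tested auxin response genes 4 rose and 1 fell; those that rose were IAA30 and 3 GH3 genes, whose enzymes conjugate auxin, and IAA1 fell. IAA30 lost its call without QM bud library 2 or QM sink leaf library 1 or 3 (adjusted p 0.0608 to 0.102), IAA1 without QM bud library 1, 2 or 3 or QM sink leaf library 1, 2 or 3 (adjusted p 0.0578 to 0.148). Auxin response genes showed 0 falls without QM bud library 1, 2 or 3 or QM sink leaf library 1 or 2 and 2 without QM sink leaf library 3. GH3.6 had 169, 354 and 179 CPM in QM buds and 7.18, 16.4 and 15.5 CPM in QM sink leaves (log2 fold change 4.17, SE 0.47, adjusted p = 0.00266), GH3.2 rose by a log2 fold change of 3.12 and GH3.5 by 2.58. IAA19 and IAA29, also auxin-induced, were not called at -1.04 and -1.15. GH3.5 lost its call without QM sink leaf library 2 (adjusted p = 0.0533). Auxin transport genes showed 2 rises without QM sink leaf library 2 or 3. Auxin transport genes showed 1 fall without QM bud library 2 or QM sink leaf library 2.

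Cytokinin genes rose in 5 and fell in 2 of 21 tested, against 11.6% and 12.2% of all tested genes. IPT5, which starts cytokinin synthesis, had 2.88, 7.12 and 21.7 CPM in QM buds and 0, 0.146 and 0.264 CPM in QM sink leaves (log2 fold change 6.30, SE 1.11, adjusted p = 0.00943). CKX1, which degrades cytokinin, had 32.4, 53 and 64.9 CPM in QM buds and 18.1, 12.3 and 19.6 CPM in QM sink leaves (log2 fold change 1.59, SE 0.30, adjusted p = 0.0119). LOG7, an activating enzyme, had 0.982, 1.14 and 1.53 CPM in QM buds and 6.79, 3.26 and 4.12 CPM in QM sink leaves (log2 fold change -1.95, SE 0.39, adjusted p = 0.0142). IPT5 was close to 0 in all QM sink leaves. Of the type A response regulators tested, ARR16 fell (log2 fold change -2.62, SE 0.71, adjusted p = 0.0375) and none rose; ARR5 and ARR7 were not called at 0.01 and -1.36. LOG7 lost its call without QM bud library 2 (adjusted p = 0.0645), ARR16 without QM bud library 2 or 3 or QM sink leaf library 1 or 2 (adjusted p 0.0809 to 0.126). Cytokinin genes showed 2 rises without QM bud library 2 and 3 without QM bud library 3 or QM sink leaf library 2 or 3. Cytokinin genes showed 0 falls without QM bud library 2 and 1 without QM bud library 3 or QM sink leaf library 1 or 2.

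Of 6 tested gibberellin genes 3 rose, in the fit of all libraries and with any 1 left out, and none fell. GA20OX2, a synthesis gene, had 2.51, 1.82 and 1.98 CPM in QM buds and 0.0427, 0 and 0 CPM in QM sink leaves, 133 times the QM sink leaf level after scaling for depth (95% counting interval 23.6 to 5283), from 175 counts in QM buds and 1 in QM sink leaves. GA2OX4, which inactivates gibberellin, was at least 40.8-fold higher in QM buds (161 counts, against 0 in the 3 sink leaf libraries), and GA2OX2, of the same function, averaged 23.9 ± 5.04 CPM in QM buds and 7.94 ± 1.95 CPM in QM sink leaves (SD, n = 3 each; log2 fold change 1.60, SE 0.26, adjusted p = 0.00757). With GA2OX4 set at its lower bound the list median stayed at 1.02, as those of the meristem and amino acid transporter lists did with their members at 0 treated alike. Abscisic acid and dehydration genes were mostly not called: 1 of 27 tested rose, RD29A (log2 fold change 2.80, SE 0.67, adjusted p = 0.025), and 2 fell, RD22 (log2 fold change -1.10, SE 0.26, adjusted p = 0.0251) and ABA2 (log2 fold change -0.67, SE 0.20, adjusted p = 0.0475). RD29A lost its call without QM sink leaf library 1, 2 or 3 (adjusted p 0.067 to 0.0904), RD22 without QM bud library 2 or 3 or QM sink leaf library 1 or 2 (adjusted p 0.0565 to 0.095) and ABA2 without QM bud library 1, 2 or 3 or QM sink leaf library 1, 2 or 3 (adjusted p 0.0516 to 0.173). Dehydration genes showed 0 falls without QM bud library 2 or QM sink leaf library 1 or 2 and 1 without QM bud library 3. Dehydration genes showed 0 rises without QM sink leaf library 2 and 2 without QM bud library 1.

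Of 14 tested genes of flowering time and inflorescence 5 rose and 1 fell in QM, against 13 and 1 of 17 in WT. Flowering genes showed 0 falls without QM bud library 2 or 3 or QM sink leaf library 1, 2 or 3 and 2 without QM bud library 1. TFL1, which keeps the inflorescence meristem from becoming a flower, had 5.82, 5.42 and 3.58 CPM in QM buds and 0.128, 0.0487 and 0.159 CPM in QM sink leaves (log2 fold change 5.41, SE 0.49, adjusted p = 0.00178). AGL24, a MADS gene of the transition, had 42.8, 54.2 and 47.2 CPM in QM buds and 11.5, 14.5 and 15.8 CPM in QM sink leaves (log2 fold change 1.79, SE 0.19, adjusted p = 0.00229). LFY, which starts flowers, had 2.78, 1.1 and 1.53 CPM in QM buds and 0.171, 0 and 0 CPM in QM sink leaves (log2 fold change 4.76, SE 0.98, adjusted p = 0.0155). LFY was highest in QM bud library 1, and all 3 genes were apart between the tissues. LMI1, a LFY target, rose (log2 fold change 2.42, SE 0.61, adjusted p = 0.0293) and FUL, a MADS gene of fruit and transition, fell (log2 fold change -1.98, SE 0.48, adjusted p = 0.0251). LFY lost its call without QM sink leaf library 2 (adjusted p = 0.054), LMI1 without QM bud library 2 or QM sink leaf library 2 or 3 (adjusted p 0.0563 to 0.0918) and FUL without QM bud library 2 or 3 or QM sink leaf library 1, 2 or 3 (adjusted p 0.0503 to 0.0918). Flowering genes showed 2 rises without QM sink leaf library 2 and 3 without QM bud library 2 or QM sink leaf library 3. AP1 was below the filter in QM and at least 29.6-fold higher in QM buds by counts (117 against 0). Of 14 floral organ genes 3 passed the filter in QM and none was called; at an unadjusted p under 0.05 there were 2, and DESeq2 called 2. Floral organ genes showed 1 rise without QM sink leaf library 2, 2 without QM sink leaf library 1 or 3 and 5 without QM bud library 3. Floral organ genes showed 1 fall without QM bud library 1. In WT 8 of 11 tested rose.

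Xylem and secondary wall genes were higher in QM buds. Of 13 genes 7 rose and 0 fell, with a median of 1.85, whereas in WT 1 rose and 5 fell, with a median of -0.47. NST1, a NAC switch of secondary wall formation, had 1.08, 3.67 and 9.06 CPM in QM buds and 0.0854, 0.0487 and 0.0529 CPM in QM sink leaves (log2 fold change 6.08, SE 1.00, adjusted p = 0.00746). CESA8, a cellulose synthase of secondary walls, had 22.8, 31.6 and 67.3 CPM in QM buds and 4.1, 9.05 and 5.13 CPM in QM sink leaves (log2 fold change 2.74, SE 0.49, adjusted p = 0.00998). CESA4 and CESA7, its partners, rose too: CESA4 averaged 69.4 ± 44.9 CPM in QM buds and 13.1 ± 4.26 CPM in QM sink leaves (SD, n = 3 each; log2 fold change 2.41, SE 0.49, adjusted p = 0.0147). CESA7 averaged 63.6 ± 41.4 CPM in QM buds and 6.63 ± 4.25 CPM in QM sink leaves (SD, n = 3 each; log2 fold change 3.27, SE 0.68, adjusted p = 0.0156). The list summed to 159.8, 209.7 and 421 CPM in QM buds and 37.4, 124 and 80.5 CPM in QM sink leaves; QM bud library 3 was the highest and QM sink leaf library 1 the lowest, and the tissues did not overlap. Xylem genes showed 3 rises without QM sink leaf library 1 or 3 and 4 without QM bud library 2 or 3. CESA4 lost its call without QM sink leaf library 1 or 3 (adjusted p 0.0533 to 0.0605), CESA7 without QM sink leaf library 3 (adjusted p = 0.0536) and VND6 without QM bud library 2 or 3 or QM sink leaf library 1 or 2 (adjusted p 0.0545 to 0.0679). The peptidase genes XCP1 and XCP2 of vessel death were not called (-0.04 and -0.04). The 3 cellulose synthase genes had WT log2 fold changes of -0.17, -0.11 and -0.14; all 13 members had a positive difference between genotypes, none called, with adjusted p of 0.0869, 0.0869 and 0.076 for CESA4, CESA7 and CESA8. How many vascular cells each bud sample held was not tested.

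Of the phloem markers 1 of 5 rose, CALS7, which lines sieve pores with callose (log2 fold change 1.80, SE 0.44, adjusted p = 0.0272), and none fell; their sum was 205, 339.7 and 518 CPM in QM buds and 389, 632 and 644 CPM in QM sink leaves. Phloem markers showed 0 rises without QM bud library 2 or 3 or QM sink leaf library 3. Phloem markers showed 1 fall without QM bud library 3. Of 11 tested suberin genes 1 rose, FAR1, a fatty acid reductase (log2 fold change 1.83, SE 0.34, adjusted p = 0.0115), against 10 of 10 in WT. All 11 had a positive fold in QM, with a median of 0.886 against 3.59 in WT, and the genotype difference was called for none. Suberin genes showed 3 rises without QM bud library 1. Epidermal genes were mixed, with 2 of 13 tested higher and 3 lower: CER6, which elongates wax precursors, had 223, 308 and 197 CPM in QM buds and 582, 716 and 700 CPM in QM sink leaves (log2 fold change -1.45, SE 0.25, adjusted p = 0.00909), and CER5, a wax exporter, fell (log2 fold change -1.25, SE 0.24, adjusted p = 0.0119). MAH1, of wax alkane oxidation, rose (log2 fold change 3.24, SE 0.70, adjusted p = 0.0176). CER6 was apart between the tissues. Guard cell genes fell in 5 of 11 tested and rose in none, led by HT1, a kinase of carbon dioxide response (log2 fold change -3.08, SE 0.42, adjusted p = 0.00422), and MYB60 (log2 fold change -3.82, SE 0.62, adjusted p = 0.00728), both of mature guard cells; SPCH and EPF2 of early stomatal lineage were not called at 2.24 and 2.36. None of 4 tested trichome genes was called; at an unadjusted p under 0.05 there were 1, and DESeq2 called 1. Trichome genes showed 1 fall without QM bud library 1. Of 14 wall loosening genes 2 rose and 1 fell, and the expansins EXPA4 and EXPA8 moved in opposite directions: EXPA4 had 72.5, 83 and 80.8 CPM in QM buds and 17.5, 22.1 and 15.1 CPM in QM sink leaves (log2 fold change 2.12, SE 0.19, adjusted p = 0.00175) and EXPA8 16.2, 29.5 and 16.7 CPM in QM buds and 99.6, 122 and 71.6 CPM in QM sink leaves (log2 fold change -2.23, SE 0.32, adjusted p = 0.00505). Wall loosening genes showed 1 rise without QM bud library 2 or QM sink leaf library 1 or 3. Wall loosening genes showed 2 falls without QM bud library 1 or QM sink leaf library 3. CALS7 lost its call without QM bud library 2 or 3 or QM sink leaf library 3 (adjusted p 0.053 to 0.0916), MAH1 without QM bud library 2 or QM sink leaf library 1, 2 or 3 (adjusted p 0.0566 to 0.067). Guard cell genes showed 2 falls without QM bud library 2 or QM sink leaf library 2 or 3. Epidermal genes showed 7 falls without QM bud library 1. Epidermal genes showed 0 rises without QM bud library 2 or QM sink leaf library 1, 2 or 3.

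Flavonoid genes depended on single libraries: 4 of 15 tested rose and none fell. Flavonoid genes showed 0 rises without QM bud library 2 or QM sink leaf library 1, 2 or 3, 1 without QM bud library 1 and 7 without QM bud library 3. Flavonoid genes showed 2 falls without QM bud library 1. The list summed to 534, 273 and 96.2 CPM in QM buds and 248, 239 and 153 CPM in QM sink leaves, so that QM bud library 1 was the highest of all 6 and library 3 the lowest. TT19, which carries anthocyanin to the vacuole, had 27.4, 10.3 and 1.12 CPM in QM buds and 0.982, 0.389 and 0.159 CPM in QM sink leaves (log2 fold change 4.62, SE 1.20, adjusted p = 0.0323), and DFR, of anthocyanin synthesis, 56.3, 37.6 and 2.98 CPM in QM buds and 2.48, 0.487 and 0 CPM in QM sink leaves (log2 fold change 4.98, SE 1.40, adjusted p = 0.0418). The QM bud values of both spanned a wide range. Of 14 aliphatic glucosinolate genes 4 rose and 1 fell; IPMDH1, of side chain elongation, had 56.9, 141 and 82.7 CPM in QM buds and 41.3, 32.9 and 32 CPM in QM sink leaves (log2 fold change 1.41, SE 0.34, adjusted p = 0.025), and MAM3, of the same stage, fell (log2 fold change -1.73, SE 0.45, adjusted p = 0.0332). TT19 lost its call without QM bud library 2 or QM sink leaf library 1, 2 or 3 (adjusted p 0.0692 to 0.113), DFR without QM bud library 1 or 2 or QM sink leaf library 1, 2 or 3 (adjusted p 0.0524 to 0.139), IPMDH1 without QM bud library 2 or QM sink leaf library 1, 2 or 3 (adjusted p 0.0576 to 0.0927) and MAM3 without QM bud library 1 or 3 or QM sink leaf library 1 or 3 (adjusted p 0.0591 to 0.0895). Aliphatic glucosinolate genes showed 0 rises without QM bud library 2 or QM sink leaf library 2, 1 without QM sink leaf library 1 or 3 and 2 without QM bud library 3. Aliphatic glucosinolate genes showed 0 falls without QM bud library 1 or 3 or QM sink leaf library 1 or 3. None of 7 indole glucosinolate and myrosinase genes was called; at an unadjusted p under 0.05 there were 2, and DESeq2 called 2. Indole glucosinolate genes showed 1 fall without QM bud library 1 or 3.

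Salicylic acid and immune genes were lower in QM buds: 15 of 21 fell and none rose, with a median of -1.24; in WT all 21 fell, with -1.70. PR2, a secreted glucanase, had 130.1, 159.5 and 245 CPM in QM buds and 1303, 1271 and 1208 CPM in QM sink leaves (log2 fold change -2.82, SE 0.31, adjusted p = 0.00266). PR5 had 90.7, 67.2 and 88.6 CPM in QM buds and 835, 932 and 367 CPM in QM sink leaves (log2 fold change -3.11, SE 0.40, adjusted p = 0.0037). PAD4, which acts with EDS1, had 41.1, 58 and 52.1 CPM in QM buds and 138, 219 and 156 CPM in QM sink leaves (log2 fold change -1.76, SE 0.24, adjusted p = 0.00457). In each case all 3 QM buds lay below all 3 QM sink leaves. SAG101, another partner of EDS1, averaged 27 ± 2.89 CPM in QM buds and 67.4 ± 5.93 CPM in QM sink leaves (SD, n = 3 each; log2 fold change -1.32, SE 0.16, adjusted p = 0.00321), and CBP60G, which switches on salicylic acid synthesis, 32.8 ± 9.54 CPM in QM buds and 134 ± 38.8 CPM in QM sink leaves (log2 fold change -2.03, SE 0.31, adjusted p = 0.0061). ICS1, the synthesis enzyme, fell by 2.42 on the log2 scale, and PR1 was called only just (log2 fold change -2.26, SE 0.66, adjusted p = 0.0469). ICS1 lost its call without QM bud library 2 (adjusted p = 0.0566), PR1 without QM bud library 1, 2 or 3 or QM sink leaf library 1 or 2 (adjusted p 0.078 to 0.115). Salicylic acid genes showed 8 falls without QM bud library 2 and 9 without QM sink leaf library 1 or 2.

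Of 17 tested jasmonate genes 6 fell and 3 rose. Synthesis genes were among those that fell: AOC1 had 3.73, 3.98 and 4.1 CPM in QM buds and 29.3, 16.9 and 44.9 CPM in QM sink leaves (log2 fold change -2.94, SE 0.37, adjusted p = 0.00351), and AOS 55.9, 64.1 and 69.8 CPM in QM buds and 172, 129.5 and 143 CPM in QM sink leaves (log2 fold change -1.22, SE 0.19, adjusted p = 0.00597). LOX2, which feeds the pathway in the chloroplast, fell by 2.07 on the log2 scale. The storage proteins VSP1 and VSP2 rose: VSP2 had 75.7, 32.1 and 22.5 CPM in QM buds and 4.27, 14.4 and 8.09 CPM in QM sink leaves (log2 fold change 2.29, SE 0.59, adjusted p = 0.0324). AOC1 and AOS did not overlap between the tissues. LOX2 lost its call without QM bud library 2 or QM sink leaf library 1 (adjusted p 0.0532 to 0.0668), VSP2 without QM bud library 2 or QM sink leaf library 1 or 3 (adjusted p 0.064 to 0.0932) and VSP1 without QM bud library 1 or 2 or QM sink leaf library 1, 2 or 3 (adjusted p 0.0581 to 0.121). Jasmonate genes showed 2 falls without QM bud library 2 or QM sink leaf library 1 and 3 without QM bud library 3 or QM sink leaf library 2. Jasmonate genes showed 0 rises without QM bud library 2 or QM sink leaf library 1 or 3 and 1 without QM sink leaf library 2.

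Senescence genes fell in 4 and rose in 1 of 12. The 1 that rose was SAG12, a cysteine protease used as a senescence marker, with 89.2, 11.4 and 35.7 CPM in QM buds and 0, 0 and 0.159 CPM in QM sink leaves, 986 times the QM sink leaf level after scaling for depth (95% counting interval 337 to 4783), from 3892 counts in QM buds and 3 in QM sink leaves; in WT it averaged 14.5 ± 18.5 CPM in WT buds and 2.02 ± 3.45 CPM in WT sink leaves (SD, n = 3 each; log2 fold change 2.77, SE 1.29, adjusted p = 0.0866). WRKY53, an early senescence regulator, had 22.1, 15.5 and 17.8 CPM in QM buds and 94.1, 96.3 and 81.2 CPM in QM sink leaves (log2 fold change -2.29, SE 0.19, adjusted p = 0.00159). The regulators ORE1 and NAP were not called at 0.36 and -0.12. Senescence genes showed 1 fall without QM bud library 2 and 2 without QM sink leaf library 1, 2 or 3. Clock genes fell in 4 of 16, all of the morning: CCA1 had 351, 378 and 245 CPM in QM buds and 1111, 827 and 777 CPM in QM sink leaves (log2 fold change -1.47, SE 0.28, adjusted p = 0.012), LHY, LNK2 and RVE8 had log2 fold changes of -1.56, -1.78 and -1.21, and the evening gene GI was not called (log2 fold change 2.03, SE 0.89, adjusted p = 0.147). The hour of harvest is not given in the labels, and its part in these values was not tested. LHY lost its call without QM bud library 2 or QM sink leaf library 1 or 2 (adjusted p 0.0537 to 0.0736). Clock genes showed 1 rise without QM bud library 1 or QM sink leaf library 1 or 3. In the remaining lists, 3 of 7 phosphate starvation genes fell, among them SQD2 of sulfolipid synthesis (log2 fold change -1.43, SE 0.24, adjusted p = 0.00802), and 1 rose, PS2 (log2 fold change 2.70, SE 0.57, adjusted p = 0.016). PS2 lost its call without QM sink leaf library 2 or 3 (adjusted p 0.0508 to 0.0623). Phosphate starvation genes showed 1 fall without QM bud library 2 or QM sink leaf library 2 or 3. Phosphate starvation genes showed 0 rises without QM sink leaf library 2 or 3. Of 9 iron genes 2 rose, FER1, a ferritin (log2 fold change 1.02, SE 0.28, adjusted p = 0.0393), and NAS4, of nicotianamine synthesis (log2 fold change 1.73, SE 0.39, adjusted p = 0.021). Iron genes showed 0 rises without QM bud library 2 or QM sink leaf library 2 and 1 without QM bud library 3 or QM sink leaf library 1 or 3. Iron genes showed 1 fall without QM bud library 1. Of 8 heat and handling genes 1 fell, ZAT12 (log2 fold change -1.72, SE 0.34, adjusted p = 0.0131). FER1 lost its call without QM bud library 2 or 3 or QM sink leaf library 1, 2 or 3 (adjusted p 0.0787 to 0.124), NAS4 without QM bud library 2 or QM sink leaf library 2 (adjusted p 0.0747 to 0.0801) and ZAT12 without QM bud library 2 (adjusted p = 0.06). Heat and handling genes showed 0 falls without QM bud library 2, 2 without QM sink leaf library 3 and 3 without QM bud library 1. Heat and handling genes showed 1 rise without QM bud library 1.

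The 12 largest rises were taken among called genes without overlap and with at least 20 CPM in the higher tissue. The carboxypeptidase gene scpl31 had 39.1, 105 and 118 CPM in QM buds and 0, 0 and 0 CPM in QM sink leaves, at least 1799-fold higher in QM buds (7101 counts, against 0 in the 3 sink leaf libraries). PGAZAT, a polygalacturonase of cell separation, was at least 619-fold higher in QM buds (2442 counts, against 0 in the 3 sink leaf libraries). LOB, of organ boundaries, had 31.4, 72.8 and 45.5 CPM in QM buds and 0.384, 0.0487 and 0 CPM in QM sink leaves (log2 fold change 8.28, SE 0.79, adjusted p = 0.00188). The QM sink leaves were at or near 0 in each, and these genes were chosen for large folds without overlap. CYP78A5, a cytochrome P450 of the meristem edge that promotes organ growth, had 58.5, 39.6 and 26.2 CPM in QM buds and 0.299, 0.0973 and 0.581 CPM in QM sink leaves (log2 fold change 7.0, SE 0.58, adjusted p = 0.00154). The laccase LAC7 and the peroxidase PER64 rose by log2 fold changes of 7.22 and 7.50, and AT4G30250, AT4G22505 and USPL1 by 8.01, 7.43 and 7.37. STM, KNAT1 and SAG12, described above, complete the 12. AT4G22505 lost its call without QM sink leaf library 1 or 2 (adjusted p 0.0501 to 0.0548).

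Among called genes without overlap and with at least 20 CPM in the higher tissue, the largest fall was that of AT2G15020. It had 1.56, 0.493 and 0 CPM in QM buds and 333, 143 and 138 CPM in QM sink leaves (log2 fold change -8.19, SE 1.12, adjusted p = 0.00429). PCR1, a metal transporter, had 2, 1.44 and 0.858 CPM in QM buds and 266, 162 and 104 CPM in QM sink leaves (log2 fold change -6.94, SE 0.53, adjusted p = 0.00126). CAT2, the main catalase of photorespiration, had 50, 29.6 and 32.3 CPM in QM buds and 2018, 1883 and 2110 CPM in QM sink leaves (log2 fold change -5.74, SE 0.36, adjusted p = 0.000995). Separate tissues and a large fold were conditions of this selection. FBA5, an aldolase, had 5.32, 0.834 and 0.559 CPM in QM buds and 58.5, 84.7 and 275 CPM in QM sink leaves (log2 fold change -5.94, SE 1.10, adjusted p = 0.0108). NCED4, a carotenoid cleavage enzyme, averaged 8.18 ± 0.807 CPM in QM buds and 441 ± 122 CPM in QM sink leaves (SD, n = 3 each; log2 fold change -5.75, SE 0.31, adjusted p = 0.000995). The other falls among the 12 were cPT4 (-6.15), AT3G28270 (-6.44), AT5G35480 (-5.98), CRK4 (-5.22) and AT1G66100 (-5.22), with SPS4F and SWEET13 given above. AT1G66100 lost its call without QM bud library 2 or QM sink leaf library 1 or 2 (adjusted p 0.0548 to 0.0826).

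Whether the bud against leaf difference itself differed between genotypes was tested in 1 fit over the 12 libraries. Of 20804 genes, 1 (0.00481%) passed an adjusted p of 0.05, FSD1, against 3259 at an unadjusted p under 0.05. FSD1 had 205, 202 and 216 CPM in QM buds and 521, 578 and 672 CPM in QM sink leaves (log2 fold change -1.5, SE 0.20, adjusted p = 0.0043). In WT, FSD1 averaged 5.8 ± 3.85 CPM in WT buds and 419.9 ± 51.9 CPM in WT sink leaves (SD, n = 3 each; log2 fold change -6.23, SE 0.43, adjusted p = 3.31e-06). The QM buds were all above 200 CPM and the WT buds at or below 10.2 CPM, while the QM and WT sink leaves were of the same order. The difference, QM minus WT, was 4.67 ± 0.50 (SE) on the log2 scale, with an adjusted p of 0.0252; the window printed above for FSD1 holds 1 GTAC, as do 40.4% of all windows at least once. DESeq2 called 1073 genes for this difference, and without QM bud library 1 edgeR called 2216 (931 with a positive and 1285 with a negative difference); without QM sink leaf libraries 1 or 2 it called 17 and 2, and without WT bud library 1, QM bud library 2 or 3, QM sink leaf library 3 or WT sink leaf library 2 or 3 it called 0. The count for the genotype difference thus moved with the tool and with the library left out.

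The 9 genes next by p all had an adjusted p of 0.076 for the difference and are given as values. NIK3, a receptor kinase, had 80.9, 93.8 and 95.8 CPM in QM buds and 39.1, 34.2 and 33.9 CPM in QM sink leaves (log2 fold change 1.34), and 0.11 in WT. AT3G18280 had 35.2, 60.9 and 72.4 CPM in QM buds and 7.35, 11.3 and 10.2 CPM in QM sink leaves (log2 fold change 2.55), and 0.25 in WT. For both the QM buds lay above the QM sink leaves without overlap. FAR1, LHT1, GRF3 and CWINV1 had QM log2 fold changes of 1.83, -1.32, 2.44 and -0.34, against 4.42, -3.31, 5.0 and -2.62 in WT, all smaller in size in QM. AT2G36930, LAP6 and AT4G11350 had 0.39, 0.08 and -0.00889 in QM, not called, against 1.43, 1.61 and 1.14 in WT. Of the 7 genes called in both genotypes in opposite directions, the laccase LAC10, AT5G53830 and AT3G52470 were higher in QM buds (1.96, 1.02 and 0.73) and lower in WT buds (-0.89, -0.49 and -0.34). AT5G47590, APR3, GUT15 and ABCC12 were lower in QM buds (-1.32, -1.03, -0.98 and -0.98) and higher in WT buds (1.72, 0.56, 0.64 and 0.27); the difference was called for none of the 7 (adjusted p 0.076 to 0.0858). LAC10 lost its call without QM bud library 2 or 3 or QM sink leaf library 1, 2 or 3 (adjusted p 0.0507 to 0.0749), AT5G53830 without QM bud library 2 or 3 or QM sink leaf library 1, 2 or 3 (adjusted p 0.0804 to 0.114), AT3G52470 without QM bud library 2 or 3 or QM sink leaf library 1, 2 or 3 (adjusted p 0.0626 to 0.115), AT5G47590 without QM bud library 1 or 2 or QM sink leaf library 2 or 3 (adjusted p 0.0565 to 0.116), APR3 without QM bud library 2 or 3 or QM sink leaf library 1 or 3 (adjusted p 0.0682 to 0.135), GUT15 without QM bud library 1 or 2 or QM sink leaf library 1, 2 or 3 (adjusted p 0.0516 to 0.114) and ABCC12 without QM bud library 2 or QM sink leaf library 2 or 3 (adjusted p 0.0514 to 0.0794).

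**Figure D5:**
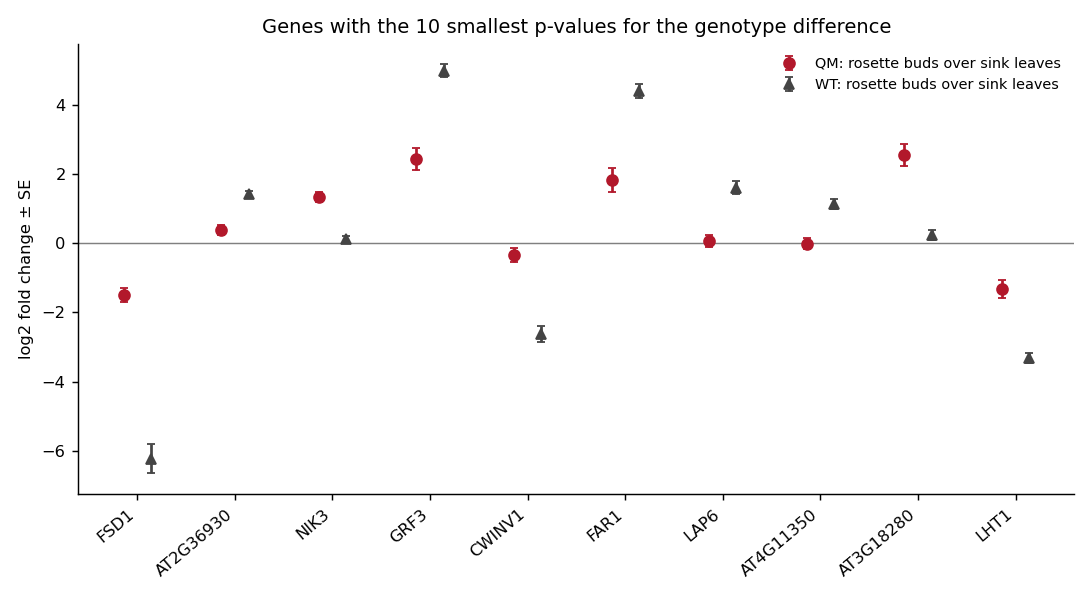
Log2 fold change of rosette buds over sink leaves, with SE, in QM (circles) and WT (triangles) for the 10 genes with the smallest p for the difference between genotypes. FSD1 is at -1.5 in QM and -6.23 in WT; the other 9 did not pass the adjusted threshold.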

How the data were processed

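RNA was sequenced in 3 libraries each of QM rosette buds, QM sink leaves, WT rosette buds and WT sink leaves. The deposited tables hold whole-number counts per locus, per the file headers and values, and the submitters' processing notes name the TAIR10 build. Among the tools in the submitters' processing notes are edgeR, DESeq2, Salmon (version 0.7.2), R (3.5.1) and SAMtools (0.1.18), with no role given. Whether the authors rounded estimated counts, and whether strand was used, is not stated there or in the labels. The WT columns of each tissue were repeated in the triple and quintuple mutant tables with identical counts and were used once.

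Counts were analysed with edgeR 4.0.16 (R 4.3.3): filterByExpr on low counts, TMM scaling, quasi-likelihood fits of the 6 libraries of each genotype without a replicate term, and a 12-library fit with an interaction term for the genotype difference. Genes with an adjusted p (Benjamini-Hochberg, over all genes tested) under 0.05 were called. The SE is the log2 fold change divided by the square root of its F statistic. Printed CPM come from 1 TMM scaling over the 12 libraries, whereas folds come from the fits. A group at 0 was set to 3 counts over its libraries, and counting intervals have a 95% confidence level and cover counting error only. Library totals were 20100808 to 23581262 counts in QM. The protocol was tested on simulated counts: of 100 genes changed 2-fold and 100 changed 4-fold, 8% and 72% were recovered in the QM comparison, with 6 unchanged genes called, and 13% and 71%, with 6, for the genotype difference. Replicates are biological replicates per the labels, with no statement of how plants were pooled.

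The members and the 48 gene lists were chosen with earlier results of these data known. Named genes were the 5 S1 bZIP genes and 9 genes of branching, sugar and nitrogen; the 12 largest rises and falls among called genes without overlap and with a higher mean of at least 20 CPM; up to 5 called members of each list by p, plus those a sentence needed; and for the genotype difference the 10 smallest p and the genes called in opposite directions. Of 680 list memberships, 5 whose symbol and locus did not match in RefSeq were dropped. Symbols and the 300-base windows come from RefSeq TAIR10.1. Alternatives were DESeq2 1.42.0, RLE scaling, no filter, no organelle loci, a replicate block, spread shared over 12 or 36 libraries, leaving out each library, and, chosen after seeing the data, limma 3.58.1 voom with quality weights.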

Additional observations from a re-analysis of the deposited data

Results flagged for a closer look

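FSD1, the chloroplast iron superoxide dismutase, was in the main fit the 1 gene whose bud against leaf difference itself differed between the genotypes at the adjusted threshold. Its log2 difference, QM minus WT, was 4.67 ± 0.50 (SE), with an adjusted p of 0.0252 by the interaction term of edgeR's quasi-likelihood test over 20804 genes. FSD1 had 205, 202 and 216 CPM in the QM buds, and every WT bud was at or below 10.2 CPM, while the QM and WT sink leaves were of the same order. The count of genes called for this difference moved with the setting. DESeq2 called 1073, and edgeR called 0 with the replicate block and 0 to 2216 with 1 library left out.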

How the results depend on the processing

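Of the 20159 genes tested in QM, 4805 were called, against 6616 with DESeq2, 4820 with RLE scaling, 4767 without a filter and 4757 without organelle loci, and 3929 were changed at least 2-fold. Sharing the spread with WT over 12 libraries gave 7843 calls, over all 36 libraries 9996, and voom with quality weights, chosen after seeing the data, 9235. With 1 library left out the range was 2206 to 5890. In WT 12769 genes were called with DESeq2, 13011 with RLE scaling, 13437 without a filter and 13492 with voom, and 11727 to 13087 with 1 library left out. The genotype difference was called for 1073 genes with DESeq2, 1 with voom, and 0 to 2216 with 1 library left out; the cause of these shifts was not tested. Of 188 named genes called in QM, the call was lost for 1 with DESeq2, 2 without a filter, 4 with voom and 2 with the spread of 12 libraries, and for 12, 72 and 29 without QM bud libraries 1, 2 and 3, and 55, 65 and 51 without QM sink leaf libraries 1, 2 and 3. Signs reversed for 2 genes that were not called. bZIP53 had log2 fold changes of -0.291 to 0.0468 with 1 library left out. AT4G11350 had -0.0496 to 0.0325 with 1 library left out, 0.0485 with voom and 0.02 with the spread of 36 libraries. Replicate numbers recur across tissues, and whether they pair the samples cannot be told from 3 libraries a group. Deviations from the group means of same-numbered QM libraries correlated at 0.21, -0.018 and 0.38, and not every library correlated best with its own number. With the replicate block, 5657 genes were called in QM, 12592 in WT and 0 for the genotype difference, and 6 of the 188 named genes lost their call. In simulated counts with 3 libraries a tissue and the spread between QM libraries, 8% of 2-fold and 72% of 4-fold changes were recovered. There, 100 genes were changed at each fold, against 4805 genes called in the data. An adjusted p depends on how many genes change, so these shares do not measure recovery in the data. Genes under the low-count filter, among them WUS and CLV3, were not testable at this depth.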
